A study of Homo sapiens with 24 samples.

Results

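The 8 libraries of HEK293T cells that received a small interfering RNA (siRNA) against RPRD2 were set against the 8 that did not, out of 24 libraries in the series. HEK293T is a human embryonic kidney line, and every library was made after 48 h of siRNA treatment. With the RPRD2 siRNA there were 4 groups of 2 libraries, labelled RPRD2_KD, RPRD1A_RPRD2_KD, RPRD1B_RPRD2_KD and RPRD1A_RPRD1B_RPRD2_KD. Each has a partner that is taken here to differ by the RPRD2 siRNA: control (a control siRNA), RPRD1A_KD, RPRD1B_KD and the group labelled RPRD1A_RPRD1A_KD. That last label names RPRD1A in both places. RPRD1B was at 11.2 ± 4.35 CPM (counts scaled to a common library size; SD, n = 2) there, against 28.4 ± 0.199 CPM (SD, n = 2) in the control, and the group was treated as carrying siRNAs against both genes. The libraries without the RPRD2 siRNA are therefore not untreated cells, since 6 of the 8 carry another RPRD siRNA. The labels do not say that replicates 1 and 2 are separate cultures, so p-values measure the spread between these libraries, which may be technical. The siRNA sequences, and how many siRNAs made up each treatment, are not given in the sources used here. The remaining 8 libraries of the series come from another kidney-derived line and were not used.

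RPRD1A, RPRD1B and RPRD2 are related nuclear proteins that carry a CTD-interaction domain. The CTD is the repeated tail of the largest subunit of RNA polymerase II, and its phosphorylation changes as the enzyme starts, elongates and ends transcription. Proteins with this domain bind the phosphorylated tail, and RPRD1A and RPRD1B are known to bring a phosphatase to it. In an siRNA experiment of this kind the siRNA lowers a messenger RNA, and the libraries report the level of polyadenylated RNA left in the cells, not transcription itself.

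The libraries held 1817246 to 3135625 counts in genes, and 3 counts, taken as the floor of detection, corresponded to 0.957 to 1.65 CPM. Of 12 HEK293 marker genes, PAX2 and NEFL were near the floor, with lowest levels of 0.571 and 1.04 CPM and medians of 2.05 and 2.81 CPM over the 16 libraries. The list had a summed level of 314 to 422 CPM with the RPRD2 siRNA and 330 to 440 CPM without it. COL1A2, DCN, THY1 and FAP of fibroblasts, PTPRC, CD3E, LYZ and HBB of blood, KRT5, KRT14, TP63 and KRT6A of keratinocytes and APOB, TTR, SERPINA1 and FGB of hepatocytes were at 0 in all 16 libraries. Replicates differed beyond sampling noise in every group, with a chi-square per degree of freedom of 3.52 to 10.7. Reads that were assigned to no gene made up 45.6% to 48.5% in replicate 1 and 40.5% to 42.1% in replicate 2, with both arms (the libraries with and without the RPRD2 siRNA) in each. The second RPRD1A_RPRD2_KD library stood apart from the others, at -66.3 on the first principal component against -2.91 to 15 for the others. The deviations of its genes correlated with transcript GC content at a Spearman coefficient of 0.42, against -0.22 to 0.09 in the other 15. It is called the outlying library here, and the counts of called genes are given with it (16 libraries) and without it (15 libraries).

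RPRD2 and TOR3A fell with the RPRD2 siRNA, and no other gene of the 11353 tested was called. RPRD2 was lowered to 46.4% of its level in the other arm and TOR3A to 63.9%. Calls were made with edgeR's quasi-likelihood test at an adjusted p (Benjamini-Hochberg, over all genes tested) under 0.05. The model held the replicate number and the presence of each siRNA. These 2 genes, both lower, are 0.0176% of those tested, and 612 genes (5.39%) had an unadjusted p under 0.05, 307 of them higher (2.7%) and 305 lower (2.69%). Without the outlying library 16 of 11505 genes were called (0.139%), 13 lower (0.113%) and 3 higher (0.0261%). These 16 include RPRD2 and TOR3A.

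RPRD2 (chr1:150363091-150476566, forward strand, GRCh38) was at 31.2, 46.9 and 70.3 CPM (lowest, median and highest of 8 libraries) with its siRNA and at 89.1, 101.5 and 105 CPM (lowest, median and highest of 8) without it. The arms did not overlap. The 2 lowest libraries were those of RPRD2_KD and the highest of the RPRD2 siRNA arm was the first RPRD1A_RPRD1B_RPRD2_KD library. In edgeR's test the log2 fold change was -1.13 (SE 0.0979, adjusted p 4.91e-07), a 2.19-fold lower level, and the count was lower in 8 of 8 pairs of libraries that share background and replicate number. Without the outlying library it was -1.15 (SE 0.0885, adjusted p 1.62e-13). The RPRD2 RNA that remained ranged with the background siRNA. It was at 32.8% of the partner group in RPRD2_KD, 42.7% in RPRD1B_RPRD2_KD, 49.7% in RPRD1A_RPRD2_KD and 60.4% in RPRD1A_RPRD1B_RPRD2_KD. As log2 fold changes these were -1.61 (SE 0.16), -1.22 (SE 0.15), -0.99 (SE 0.15) and -0.74 (SE 0.15), and the first 3 passed over all 11834 genes of that fit (edgeR adjusted p 5.10e-05, 0.00171 and 0.0173, against 1.00 for the last). With the outlying library left out RPRD2_KD and RPRD1B_RPRD2_KD passed again, and RPRD1A_RPRD1B_RPRD2_KD passed with an edgeR adjusted p of 0.0169. RPRD1A_RPRD2_KD was then left with its first library alone, at a log2 fold change of -1.10. The difference between backgrounds was itself tested as an interaction. For RPRD2 it was 0.55 (SE 0.16) with the RPRD1A siRNA and 0.32 (SE 0.16) with the RPRD1B siRNA. Neither passed over all genes (edgeR adjusted p 0.84 and 0.941). The order of the 4 backgrounds is therefore a description, since each background has 2 libraries a side.

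TOR3A (chr1:179081377-179098023, forward strand, GRCh38), which codes for a torsin-family ATPase of the endoplasmic reticulum, gave the only other call in all 16 libraries. Its level was 143, 162.5 and 212.5 CPM (lowest, median and highest of 8) with the RPRD2 siRNA and 222, 266 and 304 CPM (lowest, median and highest of 8) without it. The arms did not overlap, and the nearest libraries across them were the first RPRD1A_RPRD1B_RPRD2_KD library and the second RPRD1A_RPRD1A_KD library. The log2 fold change was -0.64 (SE 0.0758, edgeR adjusted p 7.79e-05), and -0.66 (SE 0.0661, edgeR adjusted p 1.02e-09) without the outlying library. TOR3A was lower in 8 of 8 matched pairs. By background it was at 51.4% of the partner group in RPRD2_KD, 60.7% in RPRD1B_RPRD2_KD, 64.9% in RPRD1A_RPRD2_KD and 82.5% in RPRD1A_RPRD1B_RPRD2_KD, which is the order of RPRD2 itself. In the last of these the edgeR adjusted p was 1.00, and 0.996 without the outlying library. Its interactions were 0.39 (SE 0.12) with the RPRD1A siRNA and 0.28 (SE 0.12) with the RPRD1B siRNA, and neither passed over all genes (edgeR adjusted p 0.84 and 0.941). Within each set of replicates its log2 fold change was -0.64 in replicate 1 and -0.65 in replicate 2, with edgeR adjusted p of 0.000739 and 0.479. In the second set, which holds the outlying library, RPRD2 alone was called.

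**Figure D1:**
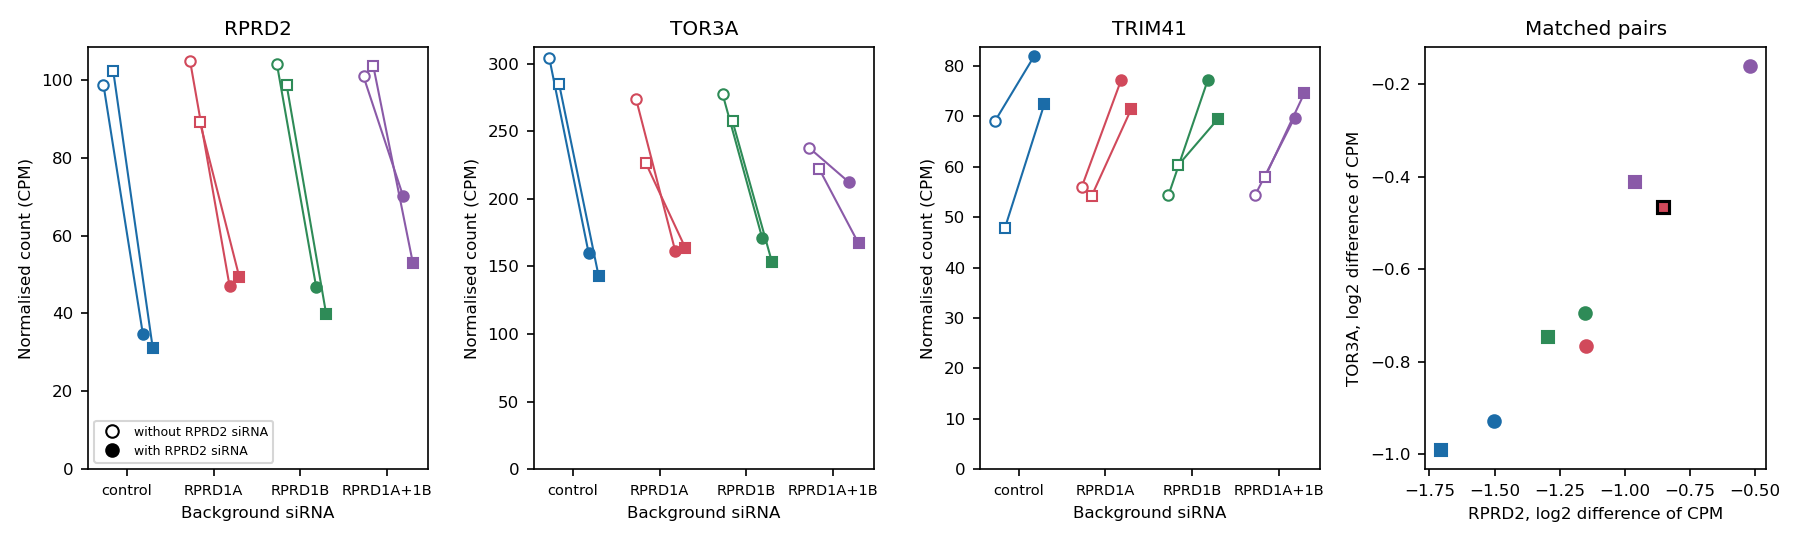
Normalised count in CPM of RPRD2, TOR3A and TRIM41 in all 16 libraries by background siRNA (open symbols without, filled with the RPRD2 siRNA; circles replicate 1, squares replicate 2; lines join matched libraries), and the log2 differences of the 8 matched pairs for TOR3A against RPRD2, with the pair of the outlying library outlined in black. RPRD2 and TOR3A are lower and TRIM41 is higher in all 8 pairs, and the pairs with the largest RPRD2 difference have the largest TOR3A difference.

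The size of the TOR3A difference followed that of RPRD2 from pair to pair. The RPRD2 log2 difference ranged from -1.71 in the second control pair to -0.52 in the first pair of the RPRD1A_RPRD1A_KD background, and the TOR3A difference from -0.99 to -0.16 in the same pairs. Over the 8 pairs, which share no library, Pearson's r was 0.97 (permutation p 0.000198) and Spearman's rho was 0.905 (permutation p 0.00456). The permutation treated all 8 pairs as exchangeable, though each background gave 2 of them. Pairs of the same background may not be independent, so the permutation p of this paragraph may be too small. With the 2 pairs farthest from the median RPRD2 difference left out r was 0.933, and without the pair of the outlying library it was 0.969. This was 1 of 3 such relations computed, and the Benjamini-Hochberg adjusted permutation p were 0.000594 for r and 0.0137 for rho. For ARNT r was -0.361 (permutation p 0.378) and rho -0.452 (permutation p 0.267). For TRIM41 r was -0.177 (permutation p 0.677) and rho -0.143 (permutation p 0.752).

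TRIM41 (chr5:181222499-181235809, forward strand, GRCh38), which codes for a RING-type ubiquitin ligase, was the only protein-coding gene called higher, and only without the outlying library. Its level was 69.5, 73.6 and 82.1 CPM (lowest, median and highest of 8) with the RPRD2 siRNA and 47.9, 55.2 and 69.1 CPM (lowest, median and highest of 8) without it. The arms did not overlap, though the first control library, at 69.1 CPM, reached the lower edge of the RPRD2 siRNA arm. The log2 fold change was 0.39 in both fits, with an edgeR adjusted p of 0.173 in 16 libraries (SE 0.0778) and 0.0165 in 15 (SE 0.0786). It was higher in 8 of 8 pairs and nearly alike by background, at 0.41, 0.43, 0.35 and 0.36 against control, RPRD1A_KD, RPRD1B_KD and RPRD1A_RPRD1A_KD. An antisense gene, AC008443.1, and the microRNA gene MIR4638 overlap it on the opposite strand, and whether strand was used in counting is not given in the sources used here. Arms that do not overlap were rare among all genes: 2 were lower without overlap (0.0176%) and 2 higher (0.0176%) in 16 libraries, and 3 (0.0261%) and 2 (0.0174%) in 15. Of the 16 genes called in 15 libraries, RPRD2, TOR3A and TRIM41 were the ones whose arms did not overlap.

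ARNT (chr1:150809705-150876768, reverse strand, GRCh38) codes for the partner protein of the aryl hydrocarbon receptor and of the hypoxia-inducible factors. Its level was 51.95, 109 and 124 CPM (lowest, median and highest of 8) with the RPRD2 siRNA and 120, 144 and 163 CPM (lowest, median and highest of 8) without it. The lowest value was that of the outlying library, and without it the RPRD2 siRNA arm began at 98.6 CPM. The arms overlapped between 120 and 124 CPM. ARNT was lower in 8 of 8 pairs, with a log2 fold change of -0.49 (SE 0.11, edgeR adjusted p 0.301) in 16 libraries and -0.38 (SE 0.0653, edgeR adjusted p 0.00181) in 15. By background, with the outlying library left out, it was -0.31 against control, -0.70 against RPRD1A_KD, -0.33 against RPRD1B_KD and -0.29 against RPRD1A_RPRD1A_KD. The value against RPRD1A_KD rests on the first RPRD1A_RPRD2_KD library alone.

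The start regions of these 4 genes are printed because RPRD2 and TOR3A moved together from pair to pair, and ARNT and TRIM41 had the next smallest adjusted p in 16 libraries among genes with a promoter in the table. Each runs from 250 bases before to 50 bases after the annotated start, 5′ to 3′ on the gene's strand, from RefSeq on GRCh38.p14. RefSeq starts differ from those of the gene positions printed above, which are from GENCODE. By the GENCODE positions the regions of RPRD2, TOR3A and TRIM41 lie inside the gene, and that of ARNT spans its start. The matches therefore depend on the start used. Capitals mark exact matches, on either strand, to 7 motifs: CCAAT (the CCAAT box), GGGCGG (the GC box), TATAAA (the TATA box), CCGGAAG (the ETS motif), CACGTG (the E-box), TGACGTCA (the CRE) and the NRF1 motif. No matches overlap in these 4 promoters.
RPRD2, chr1:150363897-150364196, forward strand: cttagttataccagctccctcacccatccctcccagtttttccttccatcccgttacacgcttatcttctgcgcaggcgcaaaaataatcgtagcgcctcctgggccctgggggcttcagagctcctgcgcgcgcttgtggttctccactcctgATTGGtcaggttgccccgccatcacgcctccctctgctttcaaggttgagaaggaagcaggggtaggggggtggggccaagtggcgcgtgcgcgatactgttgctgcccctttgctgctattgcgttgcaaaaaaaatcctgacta
TOR3A, chr1:179081820-179082119, forward strand: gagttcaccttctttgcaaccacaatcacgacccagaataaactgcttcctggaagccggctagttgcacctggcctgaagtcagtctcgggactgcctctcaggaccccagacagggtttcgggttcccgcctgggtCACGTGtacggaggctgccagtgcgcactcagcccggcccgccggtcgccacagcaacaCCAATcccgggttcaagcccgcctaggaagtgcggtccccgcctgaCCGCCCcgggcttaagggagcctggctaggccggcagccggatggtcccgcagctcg
ARNT, chr1:150876550-150876849, reverse strand: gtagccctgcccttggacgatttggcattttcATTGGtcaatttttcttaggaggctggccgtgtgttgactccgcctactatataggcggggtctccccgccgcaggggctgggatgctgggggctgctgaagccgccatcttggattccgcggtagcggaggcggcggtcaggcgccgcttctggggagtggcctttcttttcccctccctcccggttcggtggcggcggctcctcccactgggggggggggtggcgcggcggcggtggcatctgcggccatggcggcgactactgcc
TRIM41, chr5:181223031-181223330, forward strand: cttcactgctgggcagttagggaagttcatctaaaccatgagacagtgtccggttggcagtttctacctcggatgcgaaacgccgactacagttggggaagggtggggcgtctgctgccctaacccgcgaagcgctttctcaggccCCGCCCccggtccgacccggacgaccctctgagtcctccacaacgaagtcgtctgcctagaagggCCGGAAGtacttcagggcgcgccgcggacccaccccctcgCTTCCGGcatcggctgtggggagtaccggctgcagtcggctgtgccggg
RPRD2, TOR3A and ARNT each hold 1 CCAAT box, on the forward strand in TOR3A and on the reverse strand in RPRD2 and ARNT, and 34.6% of the 35116 promoters of this length hold one. TOR3A also holds a GC box (45% of all promoters) and an E-box (7.26%). Of the other 3, TRIM41 holds a GC box and none holds an E-box. TRIM41 holds 2 ETS motifs, 1 on each strand, and 10.3% of promoters hold at least 1. None of the 4 holds the TATA box (11.5%), the CRE (1.85%) or the NRF1 motif (1.24%). Of the 18 genes named by rule, 10 had a promoter in the table.

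Among the genes lower without the outlying library, 6 others code for proteins with known roles. GNG7, a gamma subunit of heterotrimeric G proteins, was at 15.4 to 37.2 CPM with the RPRD2 siRNA (median 22.2, 8 libraries) and 24.75 to 40.6 CPM without it (median 35.8, 8 libraries). Its log2 fold change was -0.51 (SE 0.12) in 16 libraries and -0.59 (SE 0.12, edgeR adjusted p 0.0105) in 15. MYH14, a heavy chain of non-muscle myosin, was scarce, at 6.87 to 18.8 CPM (median 9.23) against 11.6 to 20.4 CPM (median 15.9), with log2 fold changes of -0.59 (SE 0.15) and -0.74 (SE 0.16, edgeR adjusted p 0.0266). Both genes were lower in 8 of 8 pairs, and in both the highest level of the RPRD2 siRNA arm was that of the outlying library. HIST1H1C, a linker histone, had a log2 fold change of -0.34 (SE 0.0699, edgeR adjusted p 0.0165) in 15 libraries. MZT2B, a component of gamma-tubulin complexes, had one of -0.22 (SE 0.0464, edgeR adjusted p 0.0247). ATAD3B, an ATPase of the inner mitochondrial membrane, had one of -0.25 (SE 0.0553, edgeR adjusted p 0.03). CDC42SE1, a small binding partner of the GTPase CDC42, had one of -0.27 (SE 0.0582, edgeR adjusted p 0.0247). In 16 libraries these 4 had log2 fold changes of -0.25, -0.15, -0.23 and -0.39 and adjusted p from 0.772 to 0.896. Their arms overlapped, and HIST1H1C, MZT2B and ATAD3B were lower in 7 of 8 pairs and CDC42SE1 in 8 of 8. ATAD3B and MZT2B have near-identical copies in the genome that can share reads, and CDC42SE1 and MZT2B overlap genes on the opposite strand, so their counts are uncertain. MYH14 and GNG7 also overlap other genes.

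The remaining 6 called genes are small RNAs or copies of other genes. SCARNA13 and SCARNA22 are small Cajal body RNAs, which guide chemical modification of spliceosomal RNAs, and had log2 fold changes of -0.47 (SE 0.11, edgeR adjusted p 0.039) and -0.41 (SE 0.0923, edgeR adjusted p 0.0446) in 15 libraries. Both lie inside longer genes on the same strand. Which forms of these RNAs, and of the HIST1H1C RNA, the libraries counted was not tested. SNHG10, which holds SCARNA13, was at -0.29 (SE 0.19), and NSD2, which holds SCARNA22, at -0.04 (SE 0.0545), and neither was called. The processed pseudogenes HMGB1P5 and NPM1P27 were lower (-0.30 and -0.37) and RPL13AP25 and AP001324.1 higher (0.45 and 0.35). The parent genes of HMGB1P5, NPM1P27 and RPL13AP25 did not follow them to a call: HMGB1 was at 0.04 (SE 0.0481), NPM1 at 0.03 (SE 0.0493) and RPL13A at -0.06 (SE 0.0535). No parent of AP001324.1 was examined. How reads were divided between a pseudogene and its parent is not given in the sources used here, so these 4 are uncertain.

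**Figure D2:**
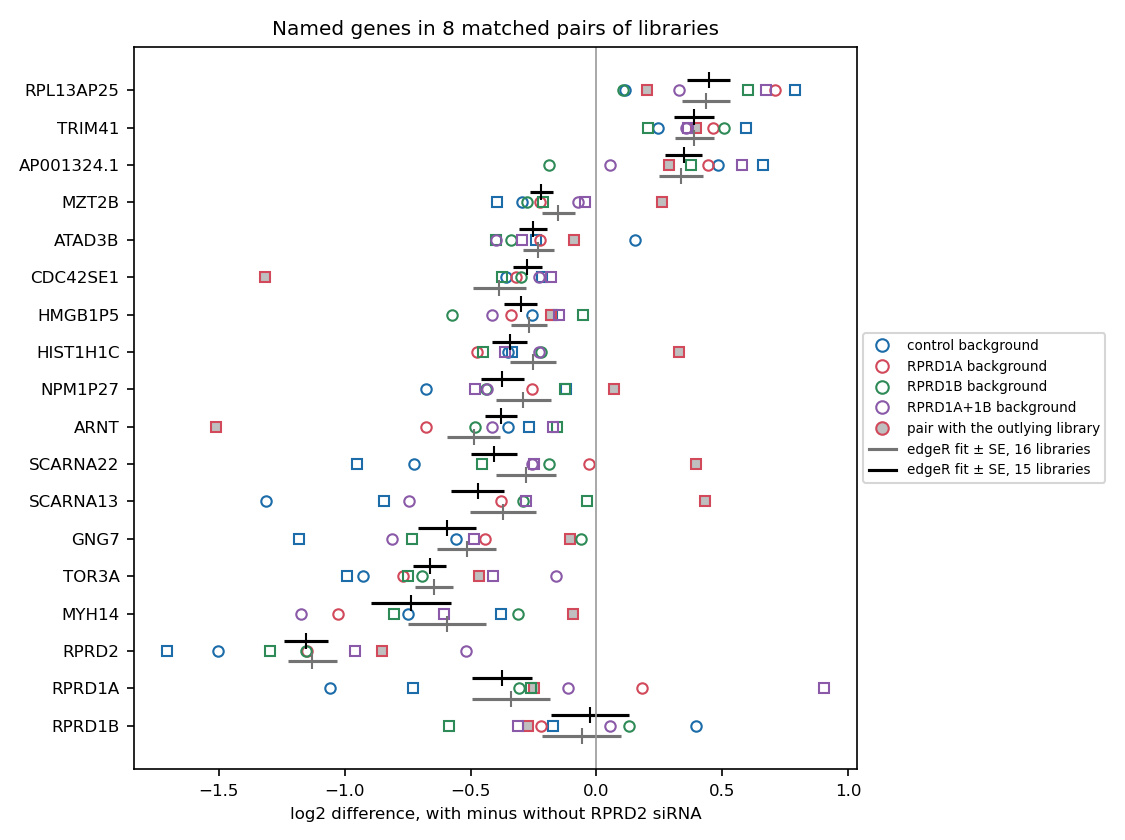
Log2 difference in normalised count, with minus without the RPRD2 siRNA, of the 18 named genes (rows) in the 8 matched pairs (symbols coloured by background; circles replicate 1, squares replicate 2; the pair of the outlying library filled grey), with the edgeR log2 fold change ± SE in 16 libraries (grey) and 15 libraries (black). RPRD2 and TOR3A lie left of 0 in all 8 pairs and RPRD1A and RPRD1B lie on both sides, and the outlying pair is the most distant symbol for ARNT and CDC42SE1.

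The partner genes RPRD1A and RPRD1B were not called in either fit. RPRD1A ranged from 19.2 to 100 CPM with the RPRD2 siRNA and from 14.7 to 166 CPM without it, since both arms include libraries with the RPRD1A siRNA. Its log2 fold change was -0.34 (SE 0.16, edgeR adjusted p 0.896) in 16 libraries and -0.37 (SE 0.12, edgeR adjusted p 0.376) in 15. In cells without a siRNA against RPRD1A or RPRD1B it was at 87.6 ± 17.6 CPM (SD, n = 2) in RPRD2_KD and 161 ± 6.73 CPM (SD, n = 2) in the control. That difference was -0.89 on the log2 scale (SE 0.18, edgeR adjusted p 0.11, and 3.06e-05 without the outlying library). Against RPRD1B_KD it was -0.29 (SE 0.19), against RPRD1A_KD -0.07 (SE 0.26) and against RPRD1A_RPRD1A_KD 0.37 (SE 0.26), and none of these was called. Levels of RPRD1B ranged from 3.998 to 37.8 CPM with the RPRD2 siRNA and from 6.21 to 28.6 CPM without it, from as few as 8 counts in a library. Its log2 fold change was -0.06 (SE 0.16) in 16 libraries and -0.02 (SE 0.15) in 15.

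ARNT and CDC42SE1, called in 15 libraries, lie near RPRD2 on chromosome 1, and the genes around it are described for that reason, with no test of the group. Of 37 genes tested with a start within 1 Mb of either end of RPRD2, 27 had a log2 fold change below 0 in 16 libraries and 26 in 15, where 5769 of all 11353 and 5889 of all 11505 genes did. The medians were -0.06 and -0.05, against -0.01 in both fits for the genes tested on the chromosome. None was called in that fit. HORMAD1, ARNT, CDC42SE1 and GABPB2 had an unadjusted p under 0.05, all 4 lower. Over all genes 2.69% were lower at that level, and nothing is read from the count, since ARNT and CDC42SE1 prompted the window. Their starts lie 358, 514, 707.2 and 707.5 kb beyond the RPRD2 start, and the 5 genes tested between RPRD2 and HORMAD1 (TARS2, FALEC, MCL1, ENSA and GOLPH3L) had log2 fold changes from -0.13 to 0.12, and from -0.08 to 0.09 in 15 libraries. Without the outlying library, which held 51.95 CPM of ARNT and 62 CPM of CDC42SE1, 5 of the 37, again with ARNT and CDC42SE1 among them, were lower at an unadjusted p under 0.05 (3.99% of all genes). GABPB2, which codes for a subunit of the GA-binding transcription factor, had a log2 fold change of -0.46 (SE 0.13) in 16 libraries and -0.36 (SE 0.12, edgeR adjusted p 0.429) in 15. It was lower in 8 of 8 pairs but scarce, at a mean of 20.97 CPM. HORMAD1, a meiotic chromosome protein, had one of -0.62 (SE 0.24) in 16 libraries and -0.51 (SE 0.25, edgeR adjusted p 0.733) in 15, at a mean of 5.715 CPM. CDC42SE1 and GABPB2 start next to each other on opposite strands. TOR3A is on the same chromosome but outside this window. Apart from ARNT and CDC42SE1, the genes of this paragraph were chosen after their values were seen.

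**Figure D3:**
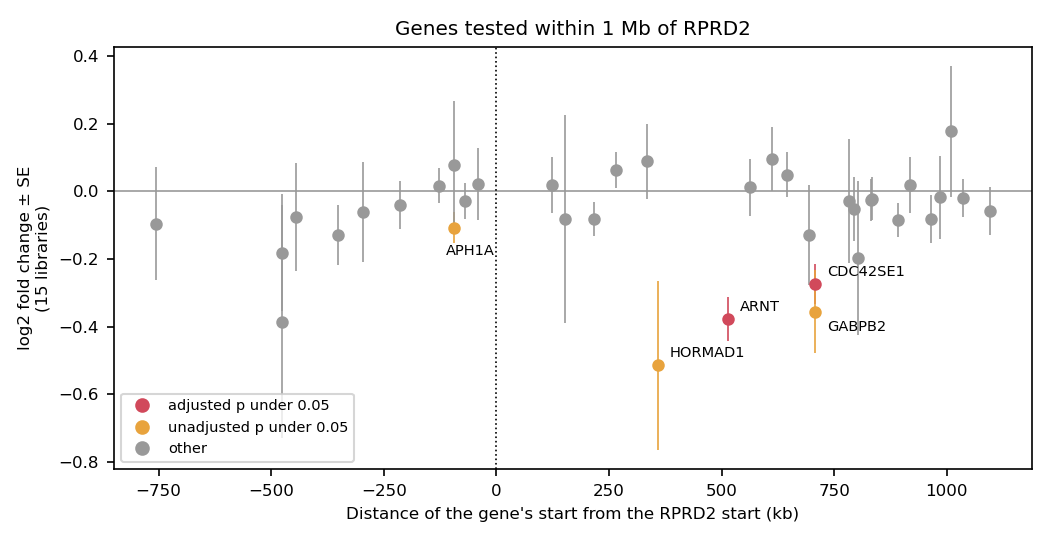
Log2 fold change ± SE (edgeR, 15 libraries) of the 37 genes tested near RPRD2 against the distance of their start from the RPRD2 start in kb, negative values being upstream. ARNT and CDC42SE1 (red) were called, and HORMAD1, GABPB2 and APH1A had an unadjusted p under 0.05.

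Gene groups tied to the polymerase tail were next examined. Of 8 proteins with a CTD-interaction domain, RPRD2 alone was called. PCF11, a termination factor of the cleavage complex, was at -0.09 (SE 0.13), SCAF4 at 0.25 (SE 0.16) and SCAF8 at -0.06 (SE 0.10) in 16 libraries, and at 0.04, 0.33 and -0.00 in 15. SCAF4 and SCAF8 are known to prevent premature termination. CHERP and U2SURP, which are tied to splicing, were at -0.04 (SE 0.0651) and -0.00 (SE 0.0561), and at -0.02 and 0.01 in 15 libraries. SCAF4 had an unadjusted p of 0.127 in 16 libraries and 0.0149 in 15, and was higher in 6 of 8 pairs. Of 6 CTD phosphatases, 11 RNA polymerase II subunits, 38 CTD kinases and elongation factors, 20 cleavage and polyadenylation factors and 17 Integrator subunits tested, none was called in edgeR in either fit. In 16 libraries 0, 0, 0, 3 and 1 of them had an unadjusted p under 0.05 (against 5.39% of all genes), and in 15 libraries 0, 2, 5, 1 and 0 (against 6.68%). Their medians lay between -0.06 and -0.01 in 16 libraries and between -0.03 and 0.00 in 15, against -0.00 for all genes in both. POLR2A, whose product carries the tail, had a log2 fold change of -0.12 in both fits and was lower in 6 of 8 pairs, with an unadjusted p of 0.0536 in 16 libraries and 0.0202 in 15. CDK12, a kinase of the tail, was at 0.15 and 0.19 (unadjusted p 0.0692 and 0.01) and was higher in 8 of 8 pairs. PABPN1, the nuclear poly(A)-binding protein, was at -0.19 and -0.17 (unadjusted p 0.0117 and 0.00492). CPSF4 and CSTF2, which bind RNA around the poly(A) site, were at 0.19 and 0.25 in 16 libraries (unadjusted p 0.0389 and 0.0362) and at 0.14 and 0.22 in 15 (unadjusted p 0.0612 and 0.0546).

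Stress, growth and housekeeping groups gave no call either, in 16 or in 15 libraries. Over all genes 5584 of 11353 were above 0 in 16 libraries and 5616 of 11505 in 15, and the shares at an unadjusted p under 0.05 were 5.39% and 6.68%. Of 25 ATF4 stress response genes tested, 17 were above 0 in 16 libraries with a median of 0.04, and 4 had an unadjusted p under 0.05. In 15 libraries 14 were above 0 with a median of 0.03, and 2 had an unadjusted p under 0.05. ASNS, the asparagine synthetase, was at 0.66 (unadjusted p 0.0108) in 16 libraries and 0.50 (unadjusted p 0.0335) in 15, at a mean of 7.67 CPM, and was higher in 6 of 8 pairs. Of 20 heat shock and chaperone genes 15 were below 0 in 16 libraries (median -0.07) and 17 in 15 libraries (median -0.06), and the medians of the list were below 0 in 6 of 8 pairs. Of 28 interferon-stimulated genes 10 had enough counts to test, and 8 of these were below 0 in both fits, with medians of -0.10 and -0.12. Of 22 cholesterol synthesis genes 15 were above 0 in 16 libraries and 12 in 15, with 4 and 3 at an unadjusted p under 0.05. EBP and SC5D code for enzymes of the last steps of the pathway. EBP was at 0.27 (unadjusted p 0.00164) in 16 libraries and 0.24 (unadjusted p 0.00118) in 15, and was higher in 8 of 8 pairs. SC5D was at -0.34 (unadjusted p 0.0169) and -0.26 (unadjusted p 0.0352). The 76 ribosomal protein genes had a median of 0.05 with 57 above 0 in 16 libraries, and a median of -0.00 with 35 above 0 without the outlying library. G1/S and G2/M cell cycle genes, 24 and 25 tested, had medians of 0.00 in 16 libraries and -0.01 in 15. MCM3, a subunit of the replicative helicase, was the G1/S gene with an unadjusted p under 0.05. It was at -0.25 (unadjusted p 0.00211) in 16 libraries and -0.28 (unadjusted p 0.000108) in 15, and it was lower in 8 of 8 pairs. The p53 response genes (20 tested), immediate early genes (17), Wnt beta-catenin targets (10), RNA interference machinery (13) and small nucleolar RNA host genes (16) had medians from -0.08 to 0.04 in 16 libraries and from -0.00 to 0.03 in 15. The 13 mitochondrially encoded messenger RNAs were at 0 counts in every library and were not tested. Whether their reads were removed before or during counting is not given in the sources used here, so nothing is read from these counts. The genes named here were chosen after their values were seen.

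**Figure D4:**
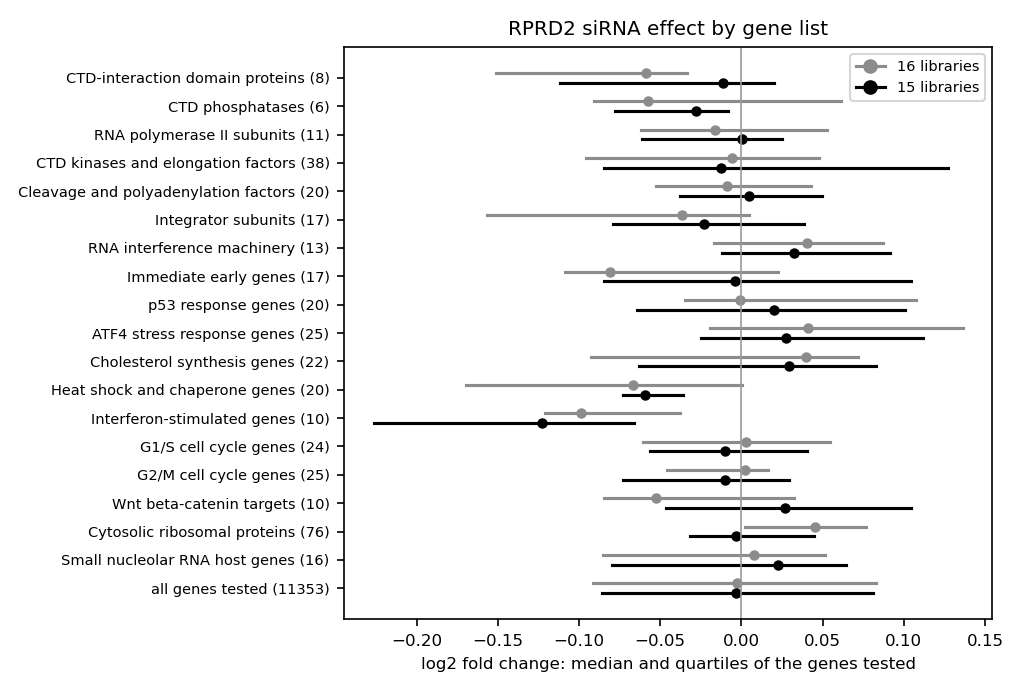
Median and quartiles of the log2 fold change for the RPRD2 siRNA in each gene list (number tested in 16 libraries in brackets), in 16 libraries (grey) and 15 libraries (black). The list medians lie between -0.12 and 0.05, within the quartiles of all genes tested except for the interferon-stimulated genes.

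The 4 backgrounds, which share no library, were then compared. Within them 2 genes were called in RPRD2_KD against control (0.0169%), 5 in RPRD1A_RPRD2_KD against RPRD1A_KD (0.0423%), 2 in RPRD1B_RPRD2_KD against RPRD1B_KD (0.0169%) and 0 in RPRD1A_RPRD1B_RPRD2_KD against RPRD1A_RPRD1A_KD (edgeR, 270 at an unadjusted p under 0.05, 2.28%). Without the outlying library the counts were 167 (1.36%) in RPRD2_KD, 3 (0.0245%) in RPRD1B_RPRD2_KD and 1 (0.00816%) in RPRD1A_RPRD1B_RPRD2_KD. RPRD1A_RPRD2_KD was then left with its first library alone, so its count is not given. The 167 are 153 lower (1.25%) and 14 higher (0.114%). For the 152 lower genes other than RPRD2 the median in RPRD2_KD against control was -0.52 on the log2 scale, which the choice fixes. In the other 3 backgrounds, which share no library with that contrast, their medians were 0.06, 0.14 and 0.05, and 34.9%, 25.7% and 36.2% of them were lower, where 50.7%, 50.2% and 50.1% of all genes were. Called again was 1 of them in RPRD1B_RPRD2_KD against RPRD1B_KD, which is TOR3A (-0.72), and 0 in RPRD1A_RPRD1B_RPRD2_KD against RPRD1A_RPRD1A_KD. The values for RPRD1A_RPRD2_KD rest on its first library alone, and calls are not counted there. The 152 genes include BAX, a pro-apoptotic member of the BCL2 family (-1.08, SE 0.19, edgeR adjusted p 0.000206), CD70, a ligand of the tumour necrosis factor family (-0.97, SE 0.16, edgeR adjusted p 0.000109), and RPRD1A. The 14 higher genes had medians of 0.13, 0.08 and 0.03 in the other backgrounds, and 57.1%, 64.3% and 50% of them were higher.

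The choice was then made the other way round. In the 3 backgrounds that already carried another RPRD siRNA, without the outlying library (11 libraries, chosen after seeing the data), 61 of 11602 genes were called for the RPRD2 siRNA (0.526%), 27 higher (0.233%) and 34 lower (0.293%). With that library 2 of 11524 were called (0.0174%). The 34 lower include RPRD2, the target of the siRNA. Of these 34, 23 were also below 0 in RPRD2_KD against control, with a median of -0.07. Of all genes 50.2% were below 0 there. Of the 27 higher, 20 were below 0 there, 15 of them at an unadjusted p under 0.05 (7.03% of all genes were lower at that level there), with a median of -0.33. GAPDH, a glycolytic enzyme, was at 2364 ± 313 CPM (SD, n = 5) with the RPRD2 siRNA and 1970 ± 142 CPM (SD, n = 6) without it in these 3 backgrounds, a log2 fold change of 0.25 (SE 0.0513, edgeR adjusted p 0.00769), and it was at -0.52 in RPRD2_KD against control. The ribosomal protein gene RPS3 was at 0.26 (SE 0.0449, edgeR adjusted p 0.000767) and -0.39, and the methyltransferase of small nucleolar RNA complexes FBL at 0.19 (SE 0.0479, edgeR adjusted p 0.0497) and -0.36. Among listed genes, POLR2A (-0.22), IER5 (-0.26), PABPN1 (-0.21) and RPL36 (-0.19) were called lower, and FDPS (0.31) and EBP (0.30) of cholesterol synthesis with RPL39 (0.19) and RPS24 (0.16) were called higher. TRIM41, ARNT and TOR3A were among the 61, at 0.39, -0.39 and -0.56, and had the same sign in RPRD2_KD against control. The choice largely fixed that sign, since the fits that named these genes include the RPRD2_KD and control libraries. Apart from TRIM41, ARNT, TOR3A and the other genes named by rule, the genes of the last 2 paragraphs were chosen after their values were seen.

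**Figure D5:**
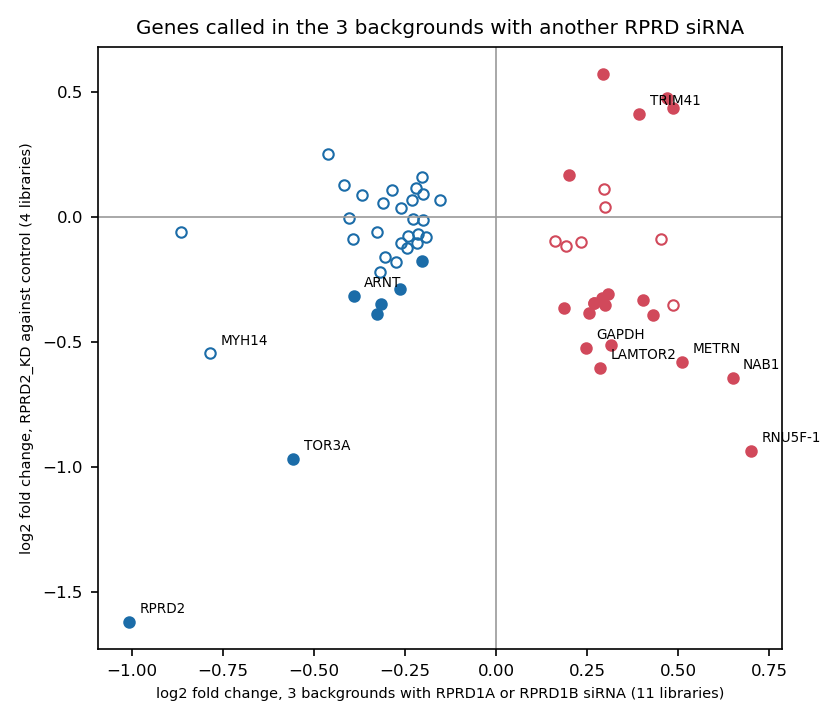
Log2 fold change for the RPRD2 siRNA of the 61 genes called in the 3 backgrounds with RPRD1A or RPRD1B siRNA (x axis; 11 libraries) against that in RPRD2_KD against control (y axis; 2 libraries a side); red points are higher and blue points lower on the x axis, and filled points have an unadjusted p under 0.05 on the y axis. RPRD2 and TOR3A lie at the lower left, and 20 of the 27 red points lie below 0 on the y axis.

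Whether the RPRD2 siRNA acts differently when RPRD1A or RPRD1B is also targeted was tested gene by gene. With all 16 libraries edgeR called 0 genes for the interaction with the RPRD1A siRNA (666 at an unadjusted p under 0.05, 5.63%) and 0 for that with the RPRD1B siRNA (584, 4.93%), and DESeq2 also called 0 for each. Without the outlying library 0 and 2 genes were called (0.017% of 11786 for the second). CHTF8, a subunit of an alternative clamp loader of DNA replication, was at -0.53 and -0.83 in the control pairs and between -0.01 and 0.33 in the 4 pairs with the RPRD1B siRNA. In the RPRD1A_KD pairs, which lack the RPRD1B siRNA too, it was at -0.20 and, in the pair of the outlying library, 0.40, so that the second of them lay above all 4 pairs with the RPRD1B siRNA and the first below them. R3HDM2, a protein with an R3H nucleic acid binding domain, was at -0.99 and -0.62 in the control pairs and between -0.01 and 0.60 in the 4 pairs with the RPRD1B siRNA. Its RPRD1A_KD pairs were at -0.61 and, with the outlying library, -0.44. Their interactions were 0.56 (SE 0.11) and 0.94 (SE 0.18), each with an edgeR adjusted p of 0.039, against 0.38 (SE 0.17) and 0.91 (SE 0.18) in 16 libraries with adjusted p of 0.941 and 0.823.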

How the data were processed

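RNA of 16 HEK293T samples was taken with TRIzol and made into 3′-end libraries (QuantSeq REV), per the labels' protocols. The authors deposited raw read counts per gene, 1 table a sample with 58138 gene names and 5 closing lines of unassigned reads, which were left out of library sizes. STAR, HTSeq, FastQC, DESeq2 and GRCh38 are named in the submitters' processing notes without version; the annotation, strand setting and filters are not given in the sources used here.

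Counts were tested in edgeR 4.0.16 (R 4.3.3; TMM scaling, filterByExpr with a minimum count of 10 and a total of 15, glmQLFit, glmQLFTest), a procedure tested on simulated data. The model was additive in replicate number and the RPRD1A, RPRD1B and RPRD2 siRNAs; backgrounds used 1 coefficient per group. Alternatives used DESeq2 1.42.0 and limma 3.58.1. Positions are from GENCODE on GRCh38, with 54814 names matched. The groups compared, the members and the gene lists were chosen with earlier results of these data known. Named genes are RPRD1A, RPRD1B, RPRD2 and, per direction, up to 14 called genes with the largest change, a mean of 10 CPM or more and the same sign in 7 of 8 pairs, filled from the fit without the outlying library (6 of 7 pairs), plus called genes of the lists. Correlations over matched pairs used exact permutation.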

Additional observations from a re-analysis of the deposited data

Results flagged for a closer look

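Among 36 arms of 8 libraries checked (18 named genes), 5 held a library whose gap to its nearest neighbour exceeded 0.526 of the arm's range, Dixon's critical value for 8 libraries, and chance gives about 1 in 20. Without the RPRD2 siRNA, RPRD2 was at 89.08 CPM in the second RPRD1A_KD library, against 98.64 CPM in the nearest. With it, TOR3A was at 212.5 CPM in the first RPRD1A_RPRD1B_RPRD2_KD library, against 171.4 CPM in the nearest, and that library also held the highest RPRD2 level of the treated arm. The other 3 are the outlying library, the second of RPRD1A_RPRD2_KD. It held 51.95 CPM of ARNT (nearest 98.63), 62 CPM of CDC42SE1 (nearest 133.2) and 1046 CPM of MZT2B (nearest 756.6).

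The effect of the RPRD2 siRNA differed with the presence of the RPRD1B siRNA, by a test of the interaction in edgeR without the outlying library, for CHTF8 (0.5624 on the log2 scale) and R3HDM2 (0.9397), both with an adjusted p of 0.03896. With that library neither passed, and for CHTF8 the RPRD1A_KD pairs, which lack the RPRD1B siRNA, were at -0.20 and 0.40.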

How the results depend on the processing

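The 2 calls, RPRD2 and TOR3A, were also 2 with RLE scaling, DESeq2, a mean count of 50 or more, robust dispersion, the RPRD1B siRNA coded as the label says, GC correction, or no control and RPRD2_KD groups. The count was 3 with 1 coefficient per group, 12 with no filter on low counts and 6 with voom library weights. Leaving out 1 library gave 2 to 16, and only the outlying library moved it; RPRD2 stayed between -1.19 and -1.08 and TOR3A between -0.69 and -0.61, called each time. Of the alternatives added after seeing the data, replicate 1 libraries gave 3 calls and replicate 2 libraries 1. Omitting the outlying library gave 14 with GC correction, 14 with DESeq2 and 61 when control and RPRD2_KD were also left out. RPRD1B, never called, turned to 0.23 when coded as the label says and to 0.13 in replicate 1 libraries, and ranged from -0.1259 to 0.0217 with 1 library left out; the cause was not tested. With no filter the interactions gave 15 (RPRD1A siRNA) and 8 (RPRD1B siRNA) calls, and leaving out 1 library 0 to 2 for the second.

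Same-numbered libraries deviated together in 25 of 28 pairs of groups (r over 0.1; mean 0.327, range -0.021 to 0.516, 8812 genes), and in 21 of 21 without the outlying library's group, but the labels do not say what a number shares. With no replicate block the main count was 2, and the counts by background were 1 (RPRD2_KD), 0 (RPRD1A_RPRD2_KD), 1 (RPRD1B_RPRD2_KD) and 0 (RPRD1A_RPRD1B_RPRD2_KD). Leaving out 1 library moved these, in the blocked fit, over 1 to 167, 0 to 2469, 0 to 3 and 0 to 1. The 2469 are without the first RPRD1A_RPRD2_KD library, when the outlying library stands alone for its group and is assumed to vary like the others; RPRD2_KD then gave 162. Depth limits the scarce genes: 3 counts are 0.957 to 1.65 CPM.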
